A study of Mus musculus with 8 samples.

Results

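PRDM16 ChIP-seq peaks were examined at 10 genes of deep-layer cortical neurons, namely Bcl11b, Tbr1, Foxp2, Zfpm2, Nr4a2, Tle4, Ldb2, Lmo3, Hs3st4 and Crym. A peak was assigned to a gene when its summit lay in the gene body, or within 100 kb of the nearer gene end with no closer protein-coding gene (RefSeq, mm10). In all, 124 of the 48145 peaks in 4 libraries met this rule, 10 in the cKO libraries and 114 in the WT libraries. The cKO embryos (Emx1Ires-Cre; Prdm16flox/flox) expressed Cre from Emx1, a gene of dorsal forebrain progenitors and their progeny, so cortical cells of other origin kept the floxed gene unrecombined. The WT embryos were Prdm16 flox/flox without Cre, so both genotypes carried the floxed alleles. Each genotype had 2 ChIP libraries, made from whole cortex at E15.5 with the same PRDM16 antibody. The labels do not say how many embryos went into a library or whether the 2 replicates came from separate litters. Peak lists hold no expression values, so neither the tissue nor the loss of Prdm16 could be checked here against marker levels.

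PRDM16, a DNA-binding zinc-finger protein, is made in radial glia, the stem cells that line the ventricle of the embryonic cortex. Neurons of the deep layers are born first from these cells and later send axons to the thalamus, brainstem and spinal cord, while neurons of the upper layers are born afterwards and connect areas of the cortex. The genes described here encode transcription factors that set deep-layer identity, the cofactors that work with such factors, and proteins used as markers of deep-layer cells. A ChIP-seq peak is a stretch of genome where fragments pulled down by the antibody pile up above the local background. The fold enrichment of a peak is the authors' value for the summit over that background, used here to describe peaks and not as a measure of change between genotypes. Regions of both WT lists are ranked by the mean of their 2 WT folds.

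The promoters of Tbr1 and Tle4 were the only promoter windows of these genes that a peak overlapped, among 7 windows of the 6 genes with an entry in the RefSeq table (GRCm38.p6). Both sequences run 5′ to 3′ from 250 bases before to 50 bases after an annotated start. Capitals mark matches, searched on both strands, to 3 short motifs. The E-box core, bound by basic helix-loop-helix factors, was searched as CANNTG. The core bound by GATA-type factors was searched as AGATAA. The core bound by many homeodomain factors was searched as TAATTA.
Tbr1, chr2:61804203-61804502, plus strand: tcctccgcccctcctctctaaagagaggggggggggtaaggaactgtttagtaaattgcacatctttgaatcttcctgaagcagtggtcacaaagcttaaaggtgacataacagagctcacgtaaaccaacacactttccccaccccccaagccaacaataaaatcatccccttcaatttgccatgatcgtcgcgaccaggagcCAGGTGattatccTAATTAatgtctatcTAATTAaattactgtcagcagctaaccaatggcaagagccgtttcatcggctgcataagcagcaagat
Tle4, start inside the gene, chr19:14597164-14597463, minus strand: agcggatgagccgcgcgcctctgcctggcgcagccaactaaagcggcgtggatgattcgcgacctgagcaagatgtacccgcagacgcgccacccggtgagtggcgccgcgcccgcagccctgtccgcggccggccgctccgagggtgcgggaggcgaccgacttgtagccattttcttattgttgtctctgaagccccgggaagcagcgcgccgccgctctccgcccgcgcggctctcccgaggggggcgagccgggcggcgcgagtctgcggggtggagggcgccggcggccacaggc
The Tbr1 window held 1 E-box core and 2 homeodomain cores, which did not overlap each other, and no GATA-type core. The Tle4 window held none of the 3 motifs. Over 32841 mouse promoter windows of the same length, 72.3% held an E-box core, 11.2% a GATA-type core and 5.29% a homeodomain core. In WT replicate 2 a peak from 61804236 to 61804539 covered the Tbr1 start with a 5.73-fold enrichment, and a 2.90-fold peak from 14597122 to 14597448 covered the Tle4 start. Neither window was overlapped in WT replicate 1 or in a cKO library.

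Peaks at the deep-layer genes were fewer in the cKO cortex. The cKO libraries held 3 and 7 of them in replicates 1 and 2, and the WT libraries 48 and 66; the genotypes did not overlap. The mean was 5 ± 2.83 in cKO and 57 ± 12.7 in WT (SD, n = 2 each), a ratio of 0.0877. An exact two-sided permutation test over the libraries gave p = 0.333, the smallest value that 2 libraries against 2 allow. The whole lists were shorter too, at 4553 and 3088 peaks in cKO and 13852 and 26652 in WT. As a share of its own list, the deep-layer genes took 0.0659% (95% Wilson interval 0.0224 to 0.194) and 0.227% (0.110 to 0.467) of the cKO peaks, and 0.347% (0.261 to 0.459) and 0.248% (0.195 to 0.315) of the WT peaks. The intervals cover counting error only, and that of cKO replicate 2 spans both WT shares. When each list was limited to its 3088 most significant peaks, the deep-layer genes held a mean of 4.50 peaks in cKO and 10 in WT, a ratio of 0.450 (exact permutation p = 0.333). The difference in number is thus smaller when the lists have the same length. The 2 genotypes also carry different library identifiers in the deposited names. No label says what the identifier marks, and it cannot be told apart from genotype.

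**Figure D1:**
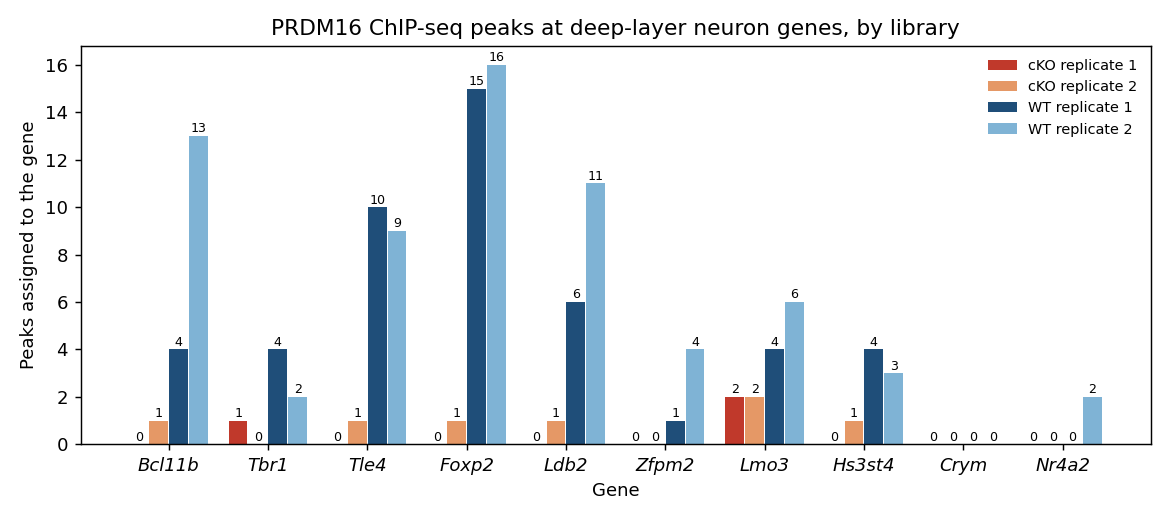
Number of PRDM16 peaks assigned to each deep-layer gene (y axis) in each library, with cKO replicates in red and orange and WT replicates in blue; each bar is 1 library and carries its count. Foxp2 had the most WT peaks, with 15 and 16, Lmo3 was the only gene with peaks in both cKO libraries, and Crym had none.

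By gene, 8 of the 10 had more peaks in each WT library than in each cKO library, against 15.7% of the 21887 protein-coding genes. With lists of 3088 peaks this held for 3 of the 10, Tle4, Foxp2 and Lmo3. The share of all genes was not computed at that length, and the 15.7% does not apply to it. In cKO replicates 1 and 2, 2 and 6 of the 10 genes had a peak, against 16.4% and 11.8% of all genes. In WT replicates 1 and 2 the numbers were 8 and 9, against 23.6% and 34.5% of all genes. The length of genome from which a summit would be assigned, gene body and flanks together, also differed. Its median was 353 kb for the 10 genes and 45.8 kb over all protein-coding genes, so more peaks are to be found at a longer stretch at any given density. The gene bodies alone ran from 11.3 kb (Tbr1) to 541 kb (Foxp2), and those of Crym (15.6 kb) and Nr4a2 (17.2 kb) were short too. How far length accounts for these counts was not tested.

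Regions present in both WT lists (unions of peaks that overlap by at least 1 bp) numbered 31 at the deep-layer genes. Of these, 29 overlapped no peak of either cKO list (93.5%, against 91.5% of all 10090 such regions), and are called WT-only. They lay at 8 of the 10 genes, against 16.6% of all protein-coding genes. The number was 8 at Foxp2, 6 at Tle4, 5 at Ldb2, 4 at Bcl11b, 2 each at Lmo3 and Hs3st4, 1 each at Tbr1 and Zfpm2, and 0 at Nr4a2 and Crym. Per megabase of assigned genome the 10 genes together held 7.75 WT-only regions, against 3.80 over all genes. The genes differed, from 17.1 at Tle4 to 0 at Nr4a2 and Crym, and Hs3st4 (3.24) and Zfpm2 (1.54) also lay below 3.80. The median mean fold of the 29 was 6.88, against 7.51 for all 9232 WT-only regions, so the deep-layer regions as a group were not of higher enrichment. With lists of 3088 peaks, 7 WT-only regions remained to be counted, at 4 genes. No share over all genes or regions was computed at that length. A single WT list in place of both gave 62 regions without WT replicate 1 and 46 without WT replicate 2.

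**Figure D2:**
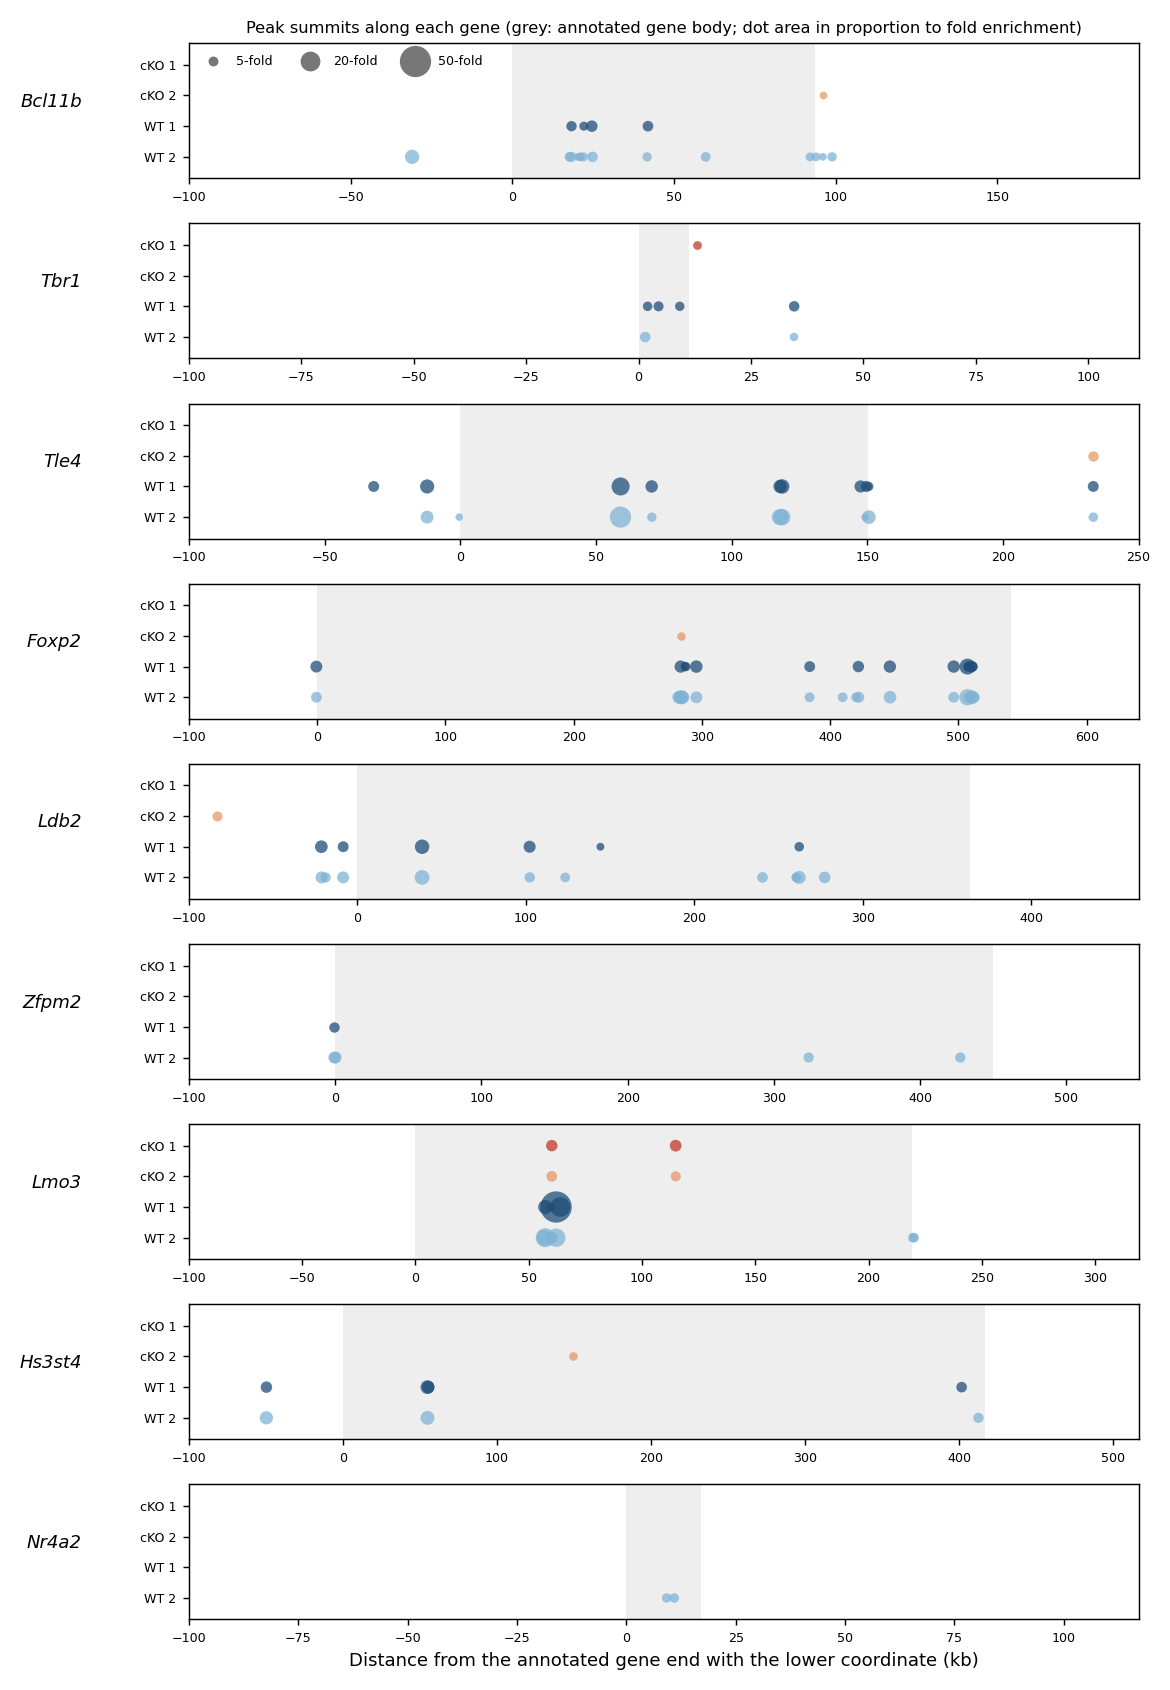
Peak summits along the 9 deep-layer genes that held a peak. The x axis is the distance in kb from the gene end with the lower coordinate, grey marks the annotated gene body, rows are libraries with cKO above WT, and the area of a dot is in proportion to fold enrichment. WT summits at Foxp2, Tle4 and Lmo3 fall in clusters seen in both replicates, and the cKO rows hold 10 dots in all.

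Among the transcription factor genes, Foxp2 carried the most WT-only regions by number, but these genes differ in length. Per megabase of assigned genome, Bcl11b held 16.3 WT-only regions, Foxp2 11.2, Tbr1 8.89, Zfpm2 1.54 and Nr4a2 0. FOXP2 is a forkhead factor of corticothalamic neurons. Its gene, on chromosome 6 from 14901349 to 15441977, held 0 and 1 peaks in the cKO libraries and 15 and 16 in the WT libraries. The strongest WT-only region, in the gene body from 15408020 to 15409378, reached 13.1-fold in WT replicate 1 and 13.5-fold in WT replicate 2, and both summits fell on the same base, 15408374. It ranked 1377 among the 10090 regions of both WT lists. A second region from 15411210 to 15412119, with 6.78-fold and 9.80-fold in the WT replicates, had its summit 3556 bp away. The other WT-only regions of Foxp2 reached mean folds of 5.54 to 7.98, and 1 of them lay within 1 kb of a gene end, 608 bp outside, with 7.23-fold and 5.98-fold in the WT replicates. By its number of WT-only regions Foxp2 ranked 63 among the 21887 protein-coding genes, tied with others.

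BCL11B, also known as CTIP2, is a zinc-finger factor needed by neurons that project to the spinal cord. At Bcl11b the cKO libraries held 0 and 1 peaks and the WT libraries 4 and 13, the widest gap between WT replicates among the 10 genes. Its 4 WT-only regions all lay in the gene body on chromosome 12, between 107928351 and 107952517, and were weak. The strongest, from 107934786 to 107935345, had 6.75-fold and 5.67-fold in the WT replicates. The highest single peak of the gene was a 10.4-fold peak of WT replicate 2, 30980 bp outside the gene, that WT replicate 1 did not call. WT replicate 2 also held peaks around the start of the gene, 924 bp after the annotated start (4.13-fold) and 173 bp outside the gene end (3.93-fold), and these were not in WT replicate 1.

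TBR1 is a T-box factor of early-born corticothalamic neurons. Its gene held 1 and 0 peaks in the cKO libraries and 4 and 2 in the WT libraries. At the start site the WT replicates did not call the same interval. The peak of WT replicate 2 over the promoter printed above ended 218 bp before a 4.62-fold peak of WT replicate 1, which ran from 61804758 to 61805195. The 1 WT-only region lay 23353 bp outside the gene, from 61837289 to 61837692, with 5.66-fold and 3.76-fold in the WT replicates. It ranked 9513 of 10090, so Tbr1 had no strongly enriched region in both WT libraries.

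Zfpm2 encodes FOG2, a partner of GATA factors that marks corticothalamic neurons. It held 0 and 0 peaks in the cKO libraries and 1 and 4 in the WT libraries. Its 1 WT-only region lay at a gene end, on chromosome 15 from 40654364 to 40654672, with 5.54-fold and 7.14-fold in the WT replicates. A second peak 339 bp inside that end, with 7.29-fold, was called only in WT replicate 2. Nr4a2 encodes NURR1, an orphan nuclear receptor of subplate cells. It held 0 and 0 peaks in the cKO libraries and 0 and 2 in the WT libraries, and both lay in its body with 4.55-fold and 4.67-fold. Another peak of WT replicate 2 (4.74-fold) lay 407 bp outside Nr4a2, but its summit was in the neighbouring gene LOC105244150 and did not meet the rule.

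Lmo3 and Tle4, both cofactor genes, held the strongest regions of the 10 by mean fold. The strongest region of the cofactor gene Ldb2 had a mean fold of 10.9, below the 13.3 of Foxp2. Lmo3 encodes a LIM-only protein, an adaptor that binds other transcription regulators. Its gene on chromosome 6 held 2 and 2 peaks in the cKO libraries and 4 and 6 in the WT libraries. The strongest WT-only region, in the gene body from 138424511 to 138427883, reached 50.1-fold in WT replicate 1 and 17.2-fold in WT replicate 2. Its mean of 33.6 ± 23.3 (SD, n = 2) ranked 77 of 10090, and the WT replicates differed here by 2.92 times, the largest ratio among the 31 regions. Behind the peak stood a summit pileup of 88 reads over a background of 0.777 in WT replicate 1, and of 112 reads over 5.58 in WT replicate 2. WT replicate 2 thus had the higher pileup and the lower fold. A second WT-only region from 138419558 to 138421000 had 10.4-fold and 18.5-fold in the WT replicates, and its summit lay 4796 bp from the first. The summits of the strongest region fell within the noncoding RefSeq gene A830011K09Rik as well as within Lmo3. Near the upper-coordinate end of Lmo3, 311 and 814 bp outside it, WT replicate 2 alone held a 4.90-fold and a 4.51-fold peak.

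Tle4 encodes a Groucho-type corepressor of corticothalamic neurons. It held 0 and 1 peaks in the cKO libraries and 10 and 9 in the WT libraries, on chromosome 19. Its strongest WT-only region lay in the gene body from 14506818 to 14507981, with 16.6-fold and 23.0-fold in the WT replicates and rank 456 of 10090. A pair of regions with summits 775 bp apart followed, from 14565568 to 14566267 (9.18-fold and 13.7-fold) and from 14566415 to 14567346 (10.7-fold and 14.1-fold). Upstream of the first annotated start, a region from 14598548 to 14598965 had 4.20-fold and 9.55-fold in the WT replicates, with summits 513 and 517 bp before that start. Within 1 kb of the gene ends, WT replicate 1 also held a 6.27-fold peak 449 bp after that start, and WT replicate 2 a 2.90-fold peak 350 bp beyond the other end. Tle4 and Lmo3 were the only genes of the 10 with a region among the 1009 of highest mean fold.

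Ldb2 encodes a LIM-domain-binding protein of subcerebral projection neurons. It held 0 and 1 peaks in the cKO libraries and 6 and 11 in the WT libraries. The strongest of its 5 WT-only regions lay in the gene body on chromosome 5 from 44473965 to 44474638, with 10.7-fold and 11.1-fold in the WT replicates. A pair of regions outside the gene, 21373 and 8435 bp beyond its lower-coordinate end, had mean folds of 7.80 and 6.76, and their summits lay within the noncoding RefSeq gene Gm36017.

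Hs3st4 encodes a sulfotransferase that modifies heparan sulfate and is a marker of corticothalamic cells. It held 0 and 1 peaks in the cKO libraries and 4 and 3 in the WT libraries. A WT-only region in its body on chromosome 7 from 124037054 to 124038184 had 9.76-fold and 9.93-fold in the WT replicates, and a second 49701 bp outside the gene had 6.73-fold and 9.02-fold. Crym, which encodes a thyroid hormone-binding protein, held 0 peaks in all 4 libraries. Only 17.9 kb of genome would be assigned to it, the least of the 10 genes. The nearest summits belonged to neighbours. Both cKO lists held a peak in the body of Abca14, 2001 and 1979 bp outside Crym, with 6.77-fold and 8.53-fold. Both WT lists held one nearer to Zp2, 28567 and 28591 bp outside Crym, with 16.9-fold and 25.2-fold.

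The cKO lists held 10 peaks at the deep-layer genes, and those found in both cKO libraries lay at Lmo3 alone. Of the 10 cKO peaks, 5 overlapped a WT peak and 5 did not. Each of these counts includes the peaks of both cKO libraries in 1 Lmo3 region, so the peaks are not all separate sites. The share over all cKO peaks was not computed, so the counts cannot be read as particular to these genes. Regions of both cKO lists numbered 2 among the 1723 of the series, at 1 of the 10 genes, against 6.83% of all protein-coding genes. The first lay in the body of Lmo3 from 138422940 to 138423166, between its 2 WT-only regions. It had 6.77-fold and 5.88-fold in cKO replicates 1 and 2, with summits 2 bp apart, and overlapped a 6.83-fold peak of WT replicate 2 whose summit lay 163 bp away. WT replicate 1 did not call it and held a 3.80-fold peak 266 bp away. The second, from 138477676 to 138477903, had 7.09-fold and 5.24-fold in the cKO replicates and overlapped no WT peak. Its summits carried 43 and 41 reads over local backgrounds of 5.21 and 7.02, above the median background of these libraries (3.72 and 3.26).

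Regions held by both WT lists and a cKO list numbered 2, at 2 of the 10 genes, against 3.22% of all genes. In Foxp2 a region from 15184339 to 15185783 had 3.72-fold in cKO replicate 2, and highest folds of 7.69 and 10.03 in WT replicates 1 and 2. The peak of WT replicate 2 that overlapped the cKO peak had 9.75-fold, and the 10.03-fold peak lay beside it. At Tle4, 83206 bp outside the gene, a region from 14681294 to 14681536 had 5.50-fold in cKO replicate 2, and 6.13-fold and 4.67-fold in the WT replicates. Both were called in cKO replicate 2 and neither in cKO replicate 1. The other cKO peaks were of 1 library each. They were a 3.92-fold peak near Tbr1 in cKO replicate 1, and in cKO replicate 2 peaks near Bcl11b (3.08-fold, overlapping a 3.09-fold peak of WT replicate 2), near Ldb2 (5.23-fold) and in Hs3st4 (3.77-fold). With peaks of −log10 q of at least 5, 0 regions of both WT lists were shared with a cKO list at these genes. At Tle4 the peak of cKO replicate 2 passed this cut (7.46), and that of WT replicate 2 did not (4.51). In Foxp2 the peak of cKO replicate 2 did not pass (2.49). The share over all regions was not computed at this cut.

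**Figure D3:**
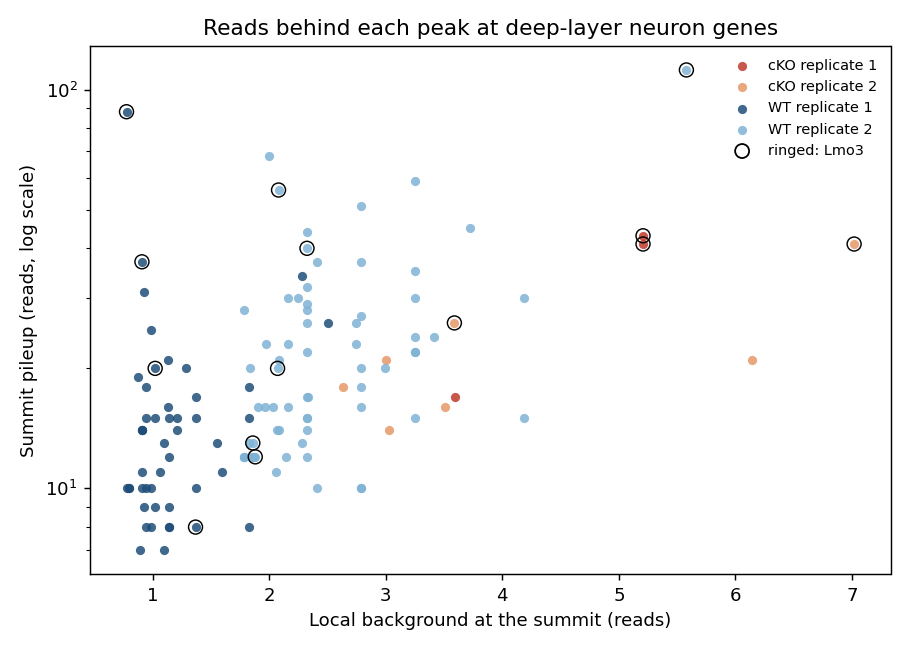
Summit pileup in reads (y axis, log scale) against local background in reads (x axis) for the 124 peaks at deep-layer genes, 1 dot per peak, with cKO libraries in red and orange, WT libraries in blue and Lmo3 peaks ringed. The cKO peaks sit at backgrounds of 2.63 to 7.02, and WT backgrounds run from 0.777 to 5.58.

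The reads behind these peaks set what each library could call. Summit pileups ran from 14 to 43 reads in the 10 cKO peaks and from 7 to 112 in the 114 WT peaks. At its median background, the smallest fold a library could call was 3.18 and 3.29 in cKO replicates 1 and 2, and 3.53 and 3.01 in WT replicates 1 and 2. All 29 WT-only regions of the deep-layer genes had both WT folds above both cKO limits, against 99.1% of all WT-only regions. With the lower WT fold divided by 2 this held for 14 of the 29, against 45.5% of all. For WT replicate 1 the result without division was nearly fixed in advance, as its limit, 3.53, lay above both cKO limits. The limit of WT replicate 2, 3.01, lay below them, but nearly all WT-only regions of the series passed in both replicates. The count without division therefore does not show that the cKO libraries could have called these regions. These limits hold at the median background and shift with the local one: cKO replicate 2 called the 3.08-fold peak near Bcl11b over a background of 6.14.

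**Figure D4:**
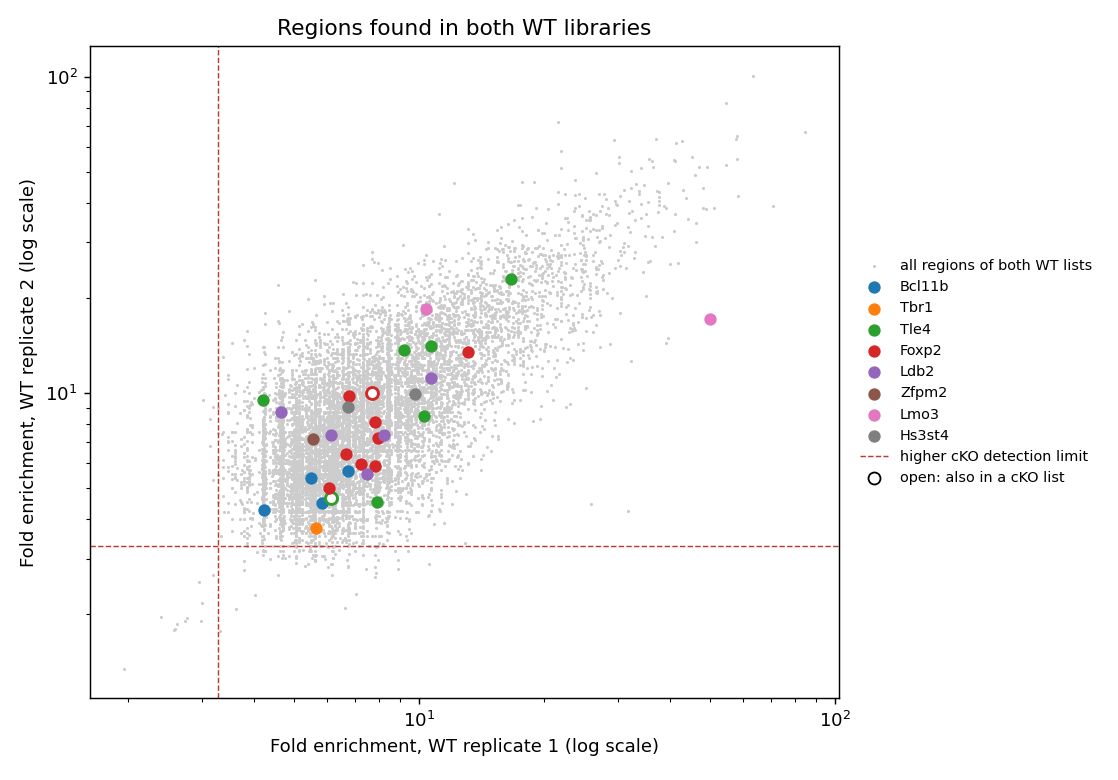
Fold enrichment in WT replicate 1 (x axis) and WT replicate 2 (y axis), both on log scales, for the 10090 regions of both WT lists in grey and the 31 at deep-layer genes in colour, with open circles for the 2 also in a cKO list. Dashed lines mark the higher cKO detection limit, 3.29-fold, and all 31 coloured points lie above it on both axes. On the x axis this was nearly fixed in advance, as the limit of WT replicate 1 was 3.53-fold. The limit of WT replicate 2 was 3.01-fold, below the line, but 99.1% of all WT-only regions lay above it on both axes.

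The 31 regions were chosen for overlap between the WT replicates. Their summits, taken from the peak of highest fold of each replicate, differed by a median of 45 bp, 23 of them by at most 100 bp. The largest separation was 672 bp, in Foxp2. There WT replicate 1 called a single wide peak with its summit at 15184776. WT replicate 2 called 2 peaks within it, with summits at 15184851 (9.75-fold) and 15185448 (10.03-fold), and the second was compared. The higher WT fold was a median of 1.30 times the lower, and 2 regions, in Lmo3 and upstream of Tle4, differed by more than 2 times. Among the 29 WT-only regions 15 had the higher fold in WT replicate 2, against 60.6% of all WT-only regions. Of the peaks of WT replicate 1 at these genes, 72.9% lay in regions of both WT lists, against 78.2% over its whole list. For WT replicate 2 the shares were 50% and 38.7%. By position, 21 of the 29 WT-only regions lay in a gene body more than 1 kb from its ends, 3 within 1 kb of an end (at Tle4, Foxp2 and Zfpm2) and 5 farther outside. Exons and introns were not separated here.

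Another 14 genes of deep-layer or subplate neurons were described by the same rule. Of these, 8 had a WT-only region, namely Fezf2, Sox5, Etv1, Ntsr1, Ccn2, Tshz2, Crim1 and Otx1, against the 16.6% of all protein-coding genes given above. Fezf2, a zinc-finger factor gene of subcerebral neurons, held 0 and 0 peaks in the cKO libraries and 8 in each WT library, and its region within 1 kb of an end, with 84.7-fold and 67.2-fold in the WT replicates, was stronger than any at the 10 genes. Sox5, a SRY-box factor gene, held 1 and 2 peaks in the cKO libraries and 23 and 27 in the WT libraries. Its highest region, with 5.72-fold and 6.59-fold in cKO replicates 1 and 2 and 22.6-fold and 25.9-fold in the WT replicates, was in all 4 lists. A second Sox5 region of both WT lists was also held by cKO replicate 2, with 5.78-fold there and 6.19-fold and 7.26-fold in the WT replicates. Tshz2, a zinc-finger gene, held 1 and 1 in cKO and 7 and 12 in WT, with a top region of 14.9-fold and 21.9-fold in the WT replicates. Tshz2 also had a region of both cKO lists, with 5.32-fold and 3.67-fold, that no WT peak overlapped. Otx1, a homeobox gene, held 2 and 1 peaks in cKO and 4 and 1 in WT. Its WT-only region within 1 kb of an end had 9.22-fold and 12.4-fold in the WT replicates. A region of both cKO lists 1196 bp outside Otx1 had 6.57-fold and 4.27-fold in the cKO replicates and 5.57-fold in WT replicate 1. Regions of both cKO lists thus lay at 3 of the 14 genes, against the 6.83% of all genes given above. The highest regions of Etv1, Ntsr1, Ccn2 and Crim1 had mean folds of 5.61, 5.59, 6.82 and 6.83. Pcp4, a calmodulin-binding protein gene, had a region of both WT lists that cKO replicate 2 also held, with 4.15-fold in cKO replicate 2 and 4.86-fold and 6.34-fold in the WT replicates. Nxph4, Cplx3 and Rbp4 held no peak in any library, and Syt6 and Rprm had peaks but no region of both WT lists. At Rprm the highest fold was 6.54 in cKO replicate 1, which held 1 peak, and cKO replicate 2 held none; WT replicates 1 and 2 held 1 peak each, with 3.89-fold and 3.43-fold.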

How the data were processed

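PRDM16 ChIP-seq peak lists of E15.5 mouse cortex were used from 2 cKO and 2 WT libraries; 4 input libraries were left out. Per the submitters' processing notes the tools were Bowtie2 2.2.8, MACS2 2.1.1, cutadapt and FastQC, and the build was mm10. The authors deposited 1 narrowPeak list per library, so replicates were not pooled. Per the file columns, deposited values are the fold enrichment (a ratio over local background), p-value and q-value as −log10, and a score, which is 10 times the −log10 q cut to a whole number and was not used further.

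Peaks on contigs other than the assembled chromosomes were left out, that is 37 and 19 lines in cKO and 12 and 14 in WT. Gene positions and promoters came from RefSeq tables of GRCm38.p6; 6 of the 10 genes had a promoter entry. The tables used here give no exons, and no genome sequence was used. Regions were unions of overlapping peaks of a genotype. Pileup and background were solved from fold and p-value, and gave whole reads within 0.0001 of the listed −log10 p for 99.97% to 100.0% of summits with −log10 p below 50. The solver, gene assignment and overlaps were checked on simulated data. Read totals per library are not in the lists, so depth was read from the background only. Python 3.11.15, pandas 2.3.3, numpy 2.4.6 and SciPy 1.17.1 were used. Libraries were compared by an exact permutation test. With 2 libraries against 2, the exact permutation p = 0.333 for any groups that do not overlap, whatever the spread between libraries. Differences between these libraries may be technical. Alternatives were a −log10 q of at least 5, lists of equal length, a 50% overlap, a 50 kb window, gene bodies alone, a replicate block and leaving out each library. The genes and lists were chosen with earlier results of these data known. The named genes are all 10 genes, with for each its region of highest mean fold, every region also in a cKO list, every region of both cKO lists and every peak within 1 kb of a gene end or start; of the other deep-layer genes, those with a region in both WT lists and their highest region.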

Additional observations from a re-analysis of the deposited data

How the results depend on the processing

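Several counts at the deep-layer genes changed with the length of the lists. The shares over all genes were not computed for the shorter lists. With 3088 peaks per library, WT-only regions numbered 7 in place of 29, genes with one 4 in place of 8, regions of both WT lists and a cKO list 1 in place of 2, and genes with more peaks in each WT list than in each cKO list 3 in place of 8. The regions of both WT lists and a cKO list were also 1 with a 50 kb window or gene bodies alone and 0 with a −log10 q of at least 5. Leaving out each library gave 29 to 62 WT-only regions and 8 to 9 genes with one. WT regions shared with a cKO list then numbered 0 to 4, and cKO regions 2 to 7. The genotype that lost a library needed a peak only in its remaining list, so these are not all regions of both lists. The ratio of cKO to WT peaks stayed below 1 under every alternative run, from 0.0526 without cKO replicate 2 to 0.450 with equal lists. With the replicate block the ratios of pairs 1 and 2 were 0.0625 and 0.106, and their geometric mean was 0.0814. An exact sign-flip test of the 2 log2 ratios gave p = 0.5, its minimum with 2 pairs. The replicate numbers are not stated to pair the libraries, so this fit is given once. The ratios of both pairs were below 1. In all, 41 recomputed values kept their direction or stayed close to the main count and 12 moved. The ratio of peaks was taken as kept whenever it stayed below 1. The 0.450 with equal lists, against 0.0877 with the full lists, is thus among the 41. The alternatives for the count of genes with more WT peaks were chosen after the data were seen. The read number of a library limits which weak peaks could be called. The lowest background solved in a list, the only trace of depth here, was 2.95 and 2.52 reads in cKO replicates 1 and 2. In WT replicates 1 and 2 it was 0.777 and 1.78 reads. This value is solved from called peaks and is not a read total, and the effect of depth on the lists was not tested.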
